A study of Mus musculus with 2 samples.

Results

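Mural cells are the contractile cells that wrap blood vessels: smooth muscle cells around arteries and veins, and pericytes around capillaries. The 10 genes described here are widely used to mark them: Acta2, Myh11, Tagln, Mylk and Cnn1 of the contractile apparatus, the filament gene Des, the receptors Pdgfrb and Notch3, the surface proteoglycan Cspg4 and the signalling regulator Rgs5. They were picked out of the tables by symbol, and all 10 were found among the 55536 annotated genes of the gene tables, with 36 of the 141767 annotated transcripts. The study measured total RNA of whole adrenal gland from 2-month-old female mice of strain B6CASTF1/J, the F1 hybrid of a C57BL/6 and a castaneus parent, with no treatment named in the labels. It has 1 group with 2 libraries, labelled as biological replicates and called animal 1 and animal 2 here. Whether these are separate animals is unclear from the labels: the library texts carry one and the same animal number, the biosample texts carry different ones and the donor entry is shared. The labels' replicate numbers were followed, and the spread between the libraries may be in part technical. No group was available to set against another, and the smallest p that an exact sign test, two-sided, allows for 2 libraries is 0.5, so no p-value is given.

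Contraction of smooth muscle begins when calcium and calmodulin activate myosin light chain kinase, the product of Mylk, which phosphorylates the light chain of the smooth muscle myosin encoded by Myh11 and lets it pull on smooth muscle actin, encoded by Acta2. Many genes of this apparatus are switched on by serum response factor, SRF, with its partner myocardin, through a DNA element called the CArG box. PDGF-B made by endothelial cells recruits mural cells through the receptor Pdgfrb, and Notch3 receives signals from ligands on the endothelium. The adrenal gland is densely supplied with capillaries and sinusoids that run from the capsule through the steroid-producing cortex to the medulla.

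Depth was similar in the libraries, with 34203664 expected counts on annotated genes in animal 1 and 35959484 in animal 2, and 13254 and 13316 genes at 1 TPM (the relative number of transcripts, a level per length) or more. The defining markers of the labelled tissue were abundant: Star, which moves cholesterol into mitochondria, had 4378 ± 362 TPM (SD, n = 2), Hsd3b1, a steroid dehydrogenase, 4155 ± 657 TPM, and the medullary granule proteins Chgb and Chga 637 ± 112 and 554 ± 62.1 TPM. Markers of other tissues differed between the libraries. Kidney genes added up to 20.1 TPM in animal 1 but 0.460 TPM in animal 2, with Kap at 350 counts against 0, Slc34a1 at 91 against 0 and Lrp2 at 437 against 63. The brown fat gene Ucp1 had 10561 counts in animal 1 and 21765 in animal 2.

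All 10 genes were detected, and 9 of them were at 1 TPM or more in both libraries. Their summed level was 85.0 TPM in animal 1 and 91.5 TPM in animal 2 (88.3 ± 4.60, SD, n = 2), or 0.0268% and 0.0257% of what all nuclear protein-coding genes held. By mean TPM the order was Tagln, Mylk, Acta2, Rgs5, Pdgfrb, Des, Cspg4, Notch3, Myh11 and Cnn1. The ranges of the libraries did not overlap in 6 of the 9 neighbouring pairs of that order. They overlapped between Mylk and Acta2, between Acta2 and Rgs5 and between Rgs5 and Pdgfrb, so these neighbours did not differ beyond the spread of the libraries, while Mylk lay wholly above Rgs5 and Pdgfrb, and Acta2 wholly above Pdgfrb.

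**Figure D1:**
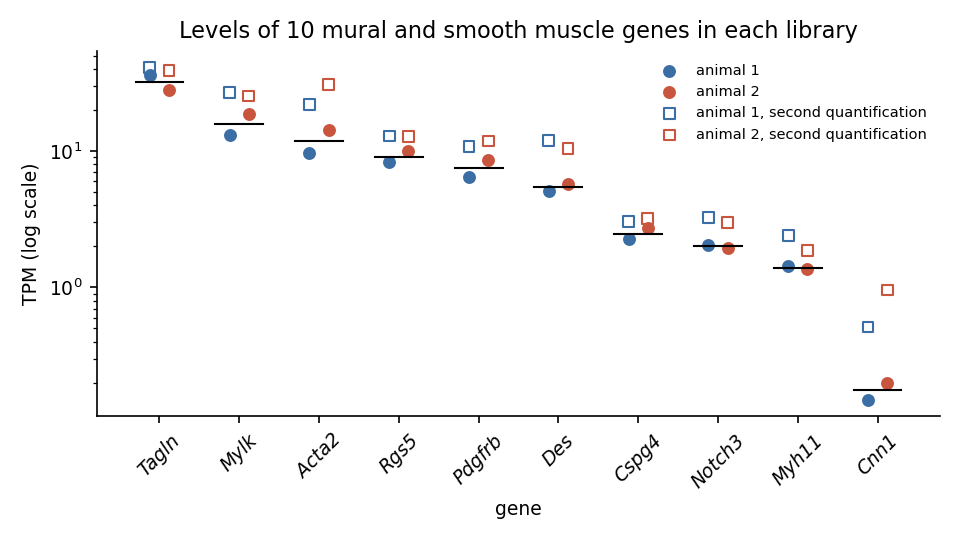
Level of each gene in TPM on a log axis, with filled circles for the gene tables, open squares for the second quantification and a line at the mean of the gene tables. Tagln was the highest at 32.2 TPM and Cnn1 the lowest at 0.175 TPM, and the second quantification lay higher for each gene. This was not particular to the 10 genes. The endothelial genes summed to 222 and 248 TPM in the gene tables and to 386 and 369 TPM in the second quantification.

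In whole tissue, a difference in a gene's level can come from more cells of a type or from more RNA per cell, and these cannot be told apart. After scaling, 8 of the 10 genes were higher in animal 2, against 48.9% of the 17308 genes that averaged 10 counts or more. The count was 10 of 10 with spike-in totals as the scale and 4 of 10 by the TPM of a second quantification, summed per gene from its transcript table. The median log2 ratio (animal 2 over animal 1) of all genes was 0.19 with spike-in totals and -0.13 by that TPM. In each case 8 of the 10 genes lay above the median. By scaled counts the middle log2 ratio of the 10 was 0.20, against -0.01 for all genes tested. For 7 of the 10 the 95% counting interval of the ratio lay wholly above 1, against 22.6% of all genes, and for 0 it lay wholly below, against 22.3%. The intervals of Cnn1, Myh11 and Notch3 included 1. An interval narrows as counts rise. A mean of at least 100 counts was reached by 9 of the 10 genes and by 12171 of the 17308. No share over genes of matched depth was taken. These intervals cover counting error only, and PCR reads without molecular identifiers are not independent molecules. With 1 library per labelled replicate there is no separate measure of technical spread. By scaled counts Acta2 was the 1 gene at least 1.5-fold apart, a call that ended with total counts as the scale (log2 ratio 0.55), by deposited TPM (0.56) and by the TPM of the second quantification (0.49). The background was that 14.3% of all genes were at least 1.5-fold apart in either direction and 7.09% at least 1.5-fold higher in animal 2.

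**Figure D2:**
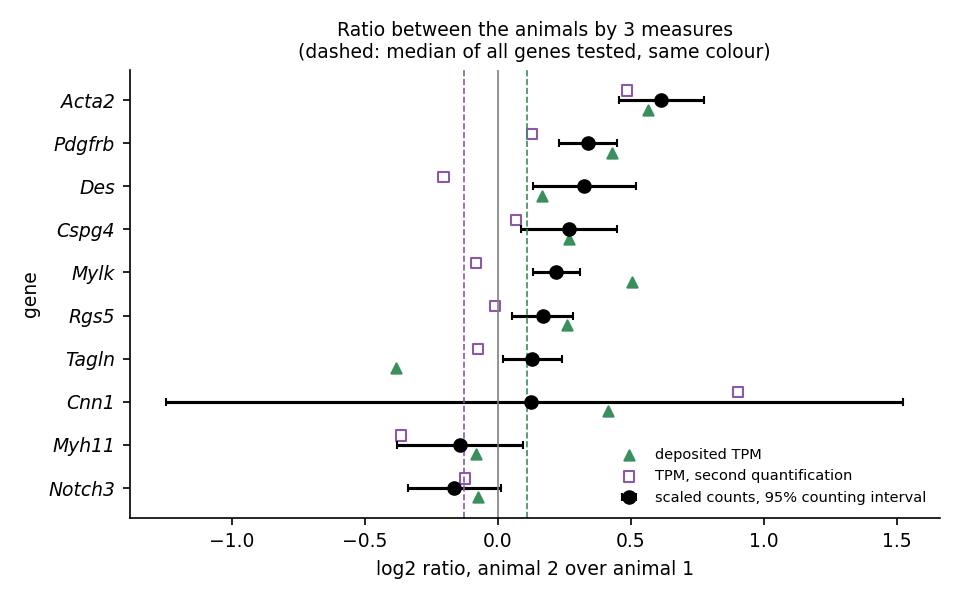
Log2 ratio of animal 2 over animal 1 for each gene by scaled counts with a 95% counting interval, by deposited TPM and by TPM of the second quantification; dashed lines are the medians of all genes tested for the 2 TPM measures. Acta2 lay highest by scaled counts at 0.62, and Tagln lay above 0 by scaled counts and below 0 by both TPM measures.

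Acta2 (ENSMUSG00000035783.9, minus strand of chromosome 19, 34241090 to 34255590 on mm10) encodes smooth muscle alpha actin, the main actin of contractile vessel walls. It had 9.66 TPM in animal 1 and 14.3 TPM in animal 2 (11.97 ± 3.27, SD, n = 2), from 537 and 827 counts. The level in animal 2 was the higher one, and the deposited TPM intervals did not overlap, at 8.33 to 10.7 and 12.6 to 15.5. Its scaled counts were 1.53-fold higher in animal 2, with a 95% counting interval of 1.37 to 1.71. A ratio at least as far from 1, in either direction, was found in 5.01% of the 12171 genes with a mean of at least 100 counts. The other muscle actins were close to 0: Actg2, the other smooth muscle actin, had 7 and 11 counts, the skeletal actin Acta1 2 and 3, and the cardiac actin Actc1 2 and 0. The cytoplasmic actins were far above Acta2, with Actb at 931 and 1277 TPM and Actg1 at 313 and 317 TPM, and Acta2 came to 1.04% and 1.12% of the Actb level. Unlike those of Actb and Actg1, the expected counts of Acta2, and of the other 9 genes, were whole numbers in both gene tables.

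The promoter of Acta2 is shown because it carries the element through which SRF acts on smooth muscle genes, and that of Cnn1 because it belongs to the gene of lowest level among the 10. Both are RefSeq sequences on GRCm38.p6, which shares its coordinates with mm10, from 250 bases before the RefSeq start to 50 bases from it. They are reference sequences, and the alleles of the hybrid animals were not read. Capitals mark a match to the CArG box, CCNNNNNNGG with A or T at the central positions and at most 1 other base among them.
Acta2 promoter, chr19:34255324-34255623, minus strand: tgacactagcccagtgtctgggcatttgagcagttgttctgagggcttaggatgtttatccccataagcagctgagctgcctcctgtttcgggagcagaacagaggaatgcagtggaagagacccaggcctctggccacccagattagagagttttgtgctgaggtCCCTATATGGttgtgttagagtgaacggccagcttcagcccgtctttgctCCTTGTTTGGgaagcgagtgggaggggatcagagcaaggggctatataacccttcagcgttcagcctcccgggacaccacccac
Cnn1 promoter, chr9:22099003-22099302, plus strand: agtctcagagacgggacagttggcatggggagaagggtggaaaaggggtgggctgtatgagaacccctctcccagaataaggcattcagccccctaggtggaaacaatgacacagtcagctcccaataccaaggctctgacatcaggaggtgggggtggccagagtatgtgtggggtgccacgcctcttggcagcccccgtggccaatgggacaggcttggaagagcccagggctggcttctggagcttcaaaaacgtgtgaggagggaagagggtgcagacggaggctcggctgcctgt
The Acta2 promoter held 2 such matches, CCCTATATGG at -84 to -75 and CCTTGTTTGG at -34 to -25 from the RefSeq start, each with 1 base other than A or T in its centre. The box is its own reverse complement, so both strands were read at once, and the matches did not overlap. The GENCODE model Acta2-201 starts 217 bases upstream of the RefSeq start, so both matches lie downstream of that model's annotated start. Promoters of 7 of the 10 genes were read, and the other 6 (Cnn1, Des, Rgs5, Cspg4, Mylk and Notch3) held no match in this window. For Mylk the window lies at the start of the long model Mylk-201. The region before the first exon of Mylk-203, a short model at the 3′ end described below, was not read. Of all 32851 mouse promoters of the same length, 9.98% held at least 1 match, 0.822% held at least 2 and 1.63% held a strict match with A or T throughout, which 0 of the 7 did.

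Myh11 (ENSMUSG00000018830.10, minus strand of chromosome 16, 14194535 to 14291372) encodes the myosin heavy chain of smooth muscle and is regarded as its most restricted marker. It had 1.44 TPM in animal 1 and 1.36 TPM in animal 2 (1.40 ± 0.0566, SD, n = 2), from 316 and 288 counts. The libraries were close, and the log2 ratio of -0.14 had a 95% counting interval of -0.38 to 0.09. Acta2 stood at 6.71 times the TPM of Myh11 in animal 1 and 10.5 times in animal 2. The non-muscle myosin heavy chains were present at higher levels, with Myh9 at 84.6 and 106 TPM and Myh10 at 10.1 and 11.03 TPM, while Myh14 had 2.13 and 1.10 TPM.

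Tagln (ENSMUSG00000032085.5, minus strand of chromosome 9, 45929619 to 45936058) encodes transgelin, or SM22 alpha, an actin-binding protein of smooth muscle, and had the highest level of the 10. The gene tables gave 36.5 TPM in animal 1 and 28.01 TPM in animal 2 (32.2 ± 5.98, SD, n = 2), from 1236 and 1360 counts. The TPM was thus lower and the count higher in animal 2: the log2 ratio was -0.38 by TPM, with deposited intervals that did not overlap (32.0 to 39.9 and 26.4 to 30.2), and 0.13 by scaled counts, with a 95% counting interval of 0.02 to 0.24. The effective length that the gene tables used for Tagln was 969 bases in animal 1 and 1470 in animal 2. Tagln held 42.9% of the summed TPM of the 10 genes in animal 1 and 30.6% in animal 2, and the sum without it was 48.6 and 63.5 TPM. Of its paralogs, Tagln2 had 29.6 and 21.1 TPM and Tagln3, a neuronal member, 1.75 and 1.49 TPM.

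Mylk (ENSMUSG00000022836.11, plus strand of chromosome 16, 34745210 to 35002420) encodes the myosin light chain kinase of smooth muscle and non-muscle cells. It had 13.1 TPM in animal 1 and 18.6 TPM in animal 2 (15.9 ± 3.90, SD, n = 2), from 1968 and 2305 counts, the most of the 10 genes. In the gene tables animal 2 was higher, with a log2 ratio of 0.22 by scaled counts (95% counting interval 0.13 to 0.31) and 0.51 by TPM, and the deposited intervals did not overlap. The direction turned by the TPM of the second quantification, which was 26.96 in animal 1 and 25.5 in animal 2. That log2 ratio, -0.082, lay above the median of all genes tested for the same measure, -0.13. The skeletal and cardiac kinases were close to 0, with Mylk2 at 1 count in each library, Mylk4 at 2 in each and Mylk3 at 16 and 7.

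Cnn1 (ENSMUSG00000001349.5, plus strand of chromosome 9, 22099216 to 22109630) encodes calponin 1, an actin-binding protein of differentiated smooth muscle. It had 10 counts in animal 1 and 11 in animal 2, or 0.150 and 0.200 TPM (0.175 ± 0.0354, SD, n = 2). At this depth the 95% counting interval of its fold, 0.422 to 2.87, could not show a difference in either direction. Tagln stood at 243 times its TPM in animal 1 and 140 times in animal 2. The broadly expressed calponins were far higher, with Cnn3 at 89.5 and 127 TPM and Cnn2 at 9.55 and 10.2 TPM.

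Des (ENSMUSG00000026208.9, plus strand of chromosome 1, 75360329 to 75368579) encodes desmin, the intermediate filament of muscle cells and of many pericytes. It had 5.12 TPM in animal 1 and 5.75 TPM in animal 2 (5.44 ± 0.445, SD, n = 2), from 400 and 504 counts. In the gene tables animal 2 was the higher, with a log2 ratio of 0.33 by scaled counts (95% counting interval 0.13 to 0.52) and 0.17 by TPM, where the deposited intervals overlapped. The TPM of the second quantification went the other way, with 12.04 in animal 1 and 10.5 in animal 2. That log2 ratio, -0.20, lay below the median of all genes tested for the same measure, -0.13. Vim, the related filament of mesenchymal and many other cells, had 58.0 and 47.6 TPM.

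Among the receptors, Pdgfrb (ENSMUSG00000024620.11, plus strand of chromosome 18, 61045150 to 61085061) encodes the PDGF receptor of mural cells and fibroblasts. It had 6.45 TPM in animal 1 and 8.68 TPM in animal 2 (7.57 ± 1.58, SD, n = 2), from 1197 and 1522 counts, and the deposited intervals did not overlap. Its log2 ratio was 0.34 by scaled counts, with a 95% counting interval of 0.23 to 0.45, the second largest of the 10. By the TPM of the second quantification the log2 ratio of Pdgfrb was 0.13, with the median of all genes tested at -0.13. Pdgfra, the sister receptor that marks fibroblasts, differed little, with 9.05 and 10.5 TPM and a log2 ratio of 0.03.

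Notch3 (ENSMUSG00000038146.8, minus strand of chromosome 17, 32120820 to 32166852) encodes the Notch receptor typical of arterial smooth muscle and pericytes. It had 2.05 TPM in animal 1 and 1.95 TPM in animal 2 (2.00 ± 0.0707, SD, n = 2), from 568 and 510 counts. The log2 ratio of -0.16 had a 95% counting interval of -0.34 to 0.01, and the deposited TPM intervals overlapped. The other receptors of the family had higher levels, with Notch2 at 16.7 and 24.3 TPM, Notch4, an endothelial receptor, at 10.5 and 7.68, and Notch1 at 5.25 and 6.10. The counts of Notch4 were 1069 and 1035, with a log2 ratio of -0.05. Its TPM in the second quantification went the other way, at 9.55 and 16.3.

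Cspg4 (ENSMUSG00000032911.6, plus strand of chromosome 9, 56865033 to 56899870) encodes the NG2 proteoglycan on the surface of pericytes and of glial precursors. It had 2.25 TPM in animal 1 and 2.71 TPM in animal 2 (2.48 ± 0.325, SD, n = 2), from 470 and 569 counts. Its log2 ratio was 0.27 by scaled counts, with a 95% counting interval of 0.09 to 0.45, and 0.27 by deposited TPM, where the deposited intervals overlapped. By the TPM of the second quantification the log2 ratio of Cspg4 was 0.069, with the median of all genes tested at -0.13.

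Rgs5 (ENSMUSG00000026678.10, plus strand of chromosome 1, 169655501 to 169695813) encodes a regulator of G protein signalling that is abundant in pericytes. It had 8.33 TPM in animal 1 and 9.97 TPM in animal 2 (9.15 ± 1.16, SD, n = 2), from 1164 and 1316 counts, and the deposited intervals did not overlap. The log2 ratio was 0.17 by scaled counts, with a 95% counting interval of 0.05 to 0.28. By the TPM of the second quantification the log2 ratio of Rgs5 was -0.0094, with the median of all genes tested at -0.13. Its relative Rgs4 went the other way, with 1586 and 992 counts, 16.0 and 10.8 TPM and a log2 ratio of -0.68.

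By the deposited TPM intervals alone, 4 of the 10 genes (Acta2, Rgs5, Pdgfrb and Mylk) were higher in animal 2 without overlap, against 19.2% of all genes. Tagln was the 1 gene lower without overlap, against 5.99%, and the intervals of the other 5 overlapped. The ratio by TPM and the ratio by counts stood at least 0.25 apart on the log2 scale for 2 genes, Tagln and Des, after their median offset over all genes was taken off, against 14.0% of all genes.

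Exons of 4 of the 10 genes overlap exons of another annotated gene, each time on the opposite strand, and no source used here says whether counting used strand. For Tagln 1241 of its 1988 exonic bases are shared with the antisense gene Gm48529, at 45 and 52 counts, and 108 with Pcsk7, a proprotein convertase gene at 857 and 804 counts. Notch3 shares 488 of 8089 with Gm17276, at 163 and 174 counts. For Mylk and Des the overlapping antisense genes had at most 5 counts in a library.

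The transcripts were described from the share of a gene's TPM that each model held, in the transcript table of the first quantification and in the second. Of the 36 models, 21 are annotated as protein coding and 15 as other types, and 7 had 0 counts in both libraries of the first quantification. Protein-coding models with incomplete ends number 5. In the first quantification the leading model was the same in both animals for each of the 9 genes at 1 TPM or more. That is a change in 0 of 9, against 15.4% of 11072 genes. In the second the leading model changed between the animals for Acta2 and Des, and no share over all genes is given for it. In the first quantification the leading model's share differed by at least 10 percentage points between the animals in 4 of the 9 (Tagln, Acta2, Des and Cspg4), against 35.6%. In 3 of the 9 (Acta2, Mylk and Des) the leading model differed between the quantifications in at least 1 library, against 38.6%. The shares given with a background lie near it, and no test was made.

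The largest shift was that of Tagln. Tagln-201, the complete model of 1595 bases, held 56.7% of the gene's TPM in animal 1 and 96.1% in animal 2. Tagln-202, a model of 369 bases with an incomplete end that has 340 bases in common with Tagln-201 and 29 bases of its own in an alternative first exon (chr9:45935546-45935574, minus strand), held 42.5% in animal 1 and 0% in animal 2, from 146 and 0 expected counts. In the second quantification Tagln-202 had 0 counts in both libraries, and Tagln-201 had 40.5 and 37.8 TPM, or 98.1% and 96.3%. In the first quantification Tagln-201 alone had 20.7 TPM in animal 1 and 26.9 TPM in animal 2, a log2 ratio of 0.38, which is opposite in sign to the TPM ratio of the gene. A model of 369 bases turns 146 counts into 15.5 TPM, and those counts were 11.8% of the gene's counts in animal 1.

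**Figure D3:**
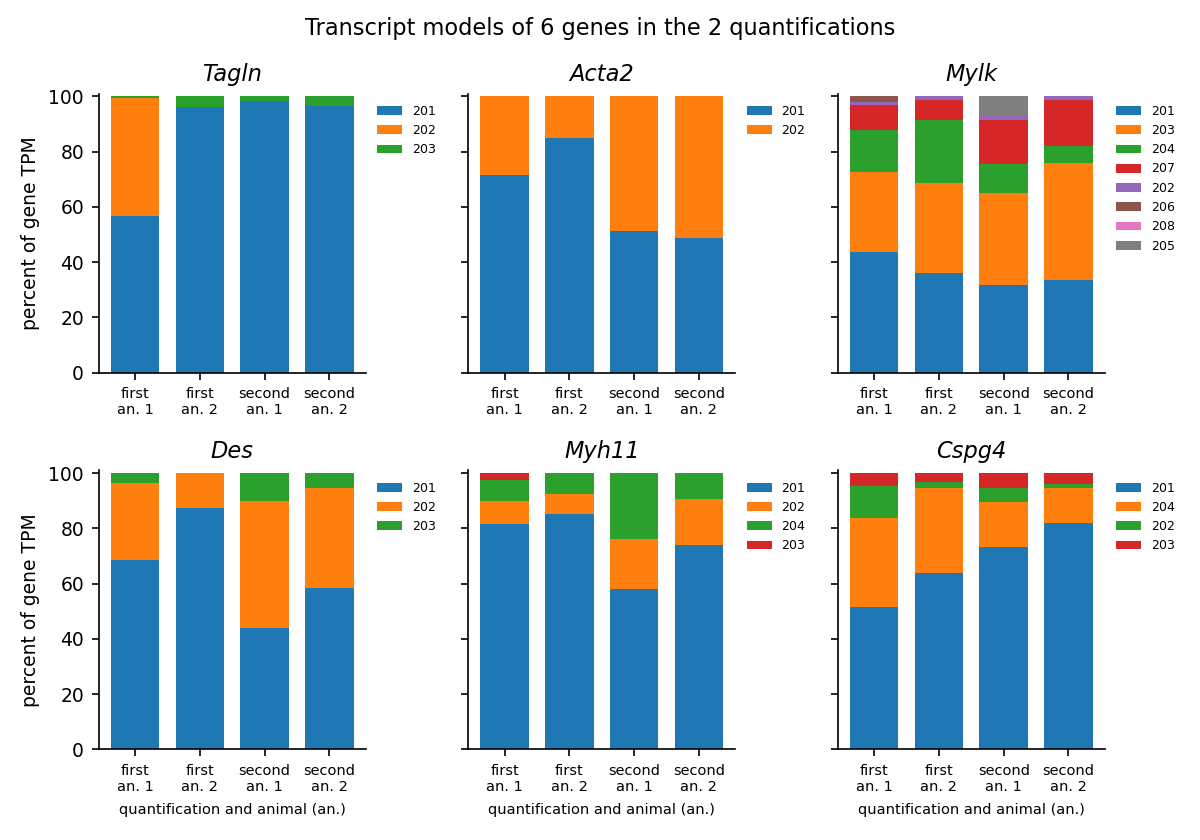
Percent of the gene's TPM held by each transcript model of 6 genes, stacked to 100, for the first and second quantification in animal 1 and animal 2 (an. 1, an. 2). Tagln-202 held 42.5% in animal 1 in the first quantification and was absent from the other 3 bars of its panel.

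For Acta2, the complete model Acta2-201 held 71.4% in animal 1 and 84.9% in animal 2. The rest went to Acta2-202, a model of 826 bases with an incomplete end and 161 bases of its own. The second quantification split the gene evenly, with Acta2-201 at 11.3 and 14.9 TPM and Acta2-202 at 10.7 and 15.8 TPM. Animal 2 had the higher TPM of Acta2-201 in both quantifications.

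Mylk is known to give rise to a long and a short kinase and, from a promoter inside the gene, to telokin, a small protein that holds the C-terminal part of the kinase. Mylk-201, the long model of 7824 bases, held 43.6% in animal 1 and 36.1% in animal 2. Mylk-203, a model of 1620 bases and 3 exons at the 3′ end with 477 coding bases, the arrangement of telokin, held 28.9% and 32.5%. In the second quantification Mylk-203 led in both animals, with 8.98 and 10.8 TPM against 8.54 and 8.58 for Mylk-201. Mylk-204, a noncoding model of 801 bases of which 723 are shared with Mylk-201, held 15.1% and 22.9% in the first quantification and 10.5% and 6.18% in the second. The start of the coding part of Mylk-203 is shown because it lies in the exon that sets this model apart, of whose 397 bases 267 are absent from Mylk-201; capitals mark its start codon.
Mylk-203, chr16:34995116-34995203, plus strand: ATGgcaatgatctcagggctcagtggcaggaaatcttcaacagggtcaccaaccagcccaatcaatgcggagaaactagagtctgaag

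Myh11 is known for 2 splice choices. An exon near the start, called SM-B, adds residues to the motor loop and is typical of fast phasic muscle, and an exon near the end changes the tail from the SM1 to the SM2 form. The exons that distinguish the annotated models are shown in capitals after the last 15 bases of the preceding exon.
Myh11-204, chr16:14248580-14248600, minus strand: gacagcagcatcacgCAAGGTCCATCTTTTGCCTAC
Myh11-202, chr16:14198061-14198088, minus strand: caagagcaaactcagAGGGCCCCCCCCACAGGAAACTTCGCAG
The first is the whole exon of 21 bases and the second the coding 28 bases of an exon of 39. Myh11-201, which has neither, held 81.8% of the gene's TPM in animal 1 and 85.2% in animal 2. Myh11-204, with the first exon, held 7.51% and 7.52%, from 23.95 and 21.44 expected counts. The posterior SD that the tables give for those counts was 26.6 and 18.2, so its presence was not resolved at this depth. Myh11-202, with the second exon, held 8.18% and 7.27%, from 25.1 and 19.9 counts with posterior SDs of 17.8 and 13.6. The second quantification gave Myh11-204 23.9% and 9.55% and Myh11-202 18.1% and 16.3%, so the shares of these models differed between the methods.

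Des-201, the complete model, held 68.4% in animal 1 and 87.4% in animal 2, and Des-202, which retains an intron, 28.1% and 12.6%. In the second quantification Des-202 held 45.9% and 36.0% and led in animal 1. Cspg4-201 held 51.7% and 63.8% in the first quantification and 73.3% and 81.8% in the second. In the first, the retained-intron models Cspg4-204 and Cspg4-202 held 32.2% and 30.9%, and 11.6% and 2.24%. Rgs5-201, Pdgfrb-201 and Notch3-201 held 100% in both animals in the first quantification. In the second, Rgs5-201 held 100% in both, Pdgfrb-201 97.2% and 94.5%, and Notch3-201 100% and 85.8%. Of the 10 and 11 counts of Cnn1, Cnn1-201 held 89.8% in animal 1 and 83.0% in animal 2. By TPM, Cnn1-205 held 25.2% in animal 1, and Cnn1-204 held 24.25% and Cnn1-203 13.9% in animal 2, from 1.02, 0.86 and 1.01 expected counts, so these shares were not resolved at this depth.

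Of 15 further genes of the contractile apparatus that passed the count minimum, 9 were higher and 6 lower in animal 2, and the median log2 ratio was 0.06. Intervals lay wholly above 1 for 4 and wholly below for 2, near the 22.6% and 22.3% of all genes. The counts of this and the following lists are given as descriptions beside those shares, with no test against the 10 genes. Myl6, a light chain shared with non-muscle myosin, had 260 and 273 TPM, and Tpm1, a tropomyosin, 46.1 and 50.03 TPM. Neither interval excluded 1.

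Of 14 further pericyte and mural genes, 6 were higher and 8 lower in animal 2, with intervals wholly above 1 for 4 and wholly below for 5, and the median was -0.02. Aoc3, an amine oxidase of vascular smooth muscle and adipocytes, had 13.9 and 16.8 TPM and a log2 ratio of 0.18 with a 95% counting interval of 0.10 to 0.27. Ndufa4l2, a mitochondrial protein enriched in pericytes, had 13.99 and 15.9 TPM, and its interval included 1.

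Among 7 SRF and myocardin regulators, 6 were higher and 1 lower in animal 2, with intervals wholly above 1 for 2 and wholly below for 1, and the median was 0.14. Gata6, a transcription factor of vascular smooth muscle that the adrenal cortex also expresses, had 20.5 and 26.1 TPM. Srf had 12.4 and 15.7 TPM, with an interval of its count ratio that included 1. Myocd, the smooth muscle coactivator, was named after its values were seen, and had 6 and 14 counts.

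Of the 5 genes of the PDGF list, 3 were higher and 2 lower, with intervals above 1 for 0 and below for 1, and a median of 0.03. The ligand genes of highest level were Pdgfd, at 15.24 and 15.25 TPM, and Pdgfb, at 9.13 and 10.5 TPM. Of the other 13 genes of the Notch list, 4 were higher and 9 lower, with intervals above 1 for 1 and below for 1, and a median of -0.05. Notch2 was the 1 gene above, with a log2 ratio of 0.58, and Rbpj, the DNA-binding partner of all Notch receptors, had 10.1 and 8.96 TPM.

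Endothelial genes line the vessels that mural cells wrap, and 8 of 12 were higher in animal 2, with intervals above 1 for 6, below for 2 and a median of 0.09. Plvap, the protein of fenestral diaphragms, had 63.6 and 68.6 TPM, and Eng, a TGF-beta coreceptor, 29.8 and 34.8 TPM. The summed TPM of the 10 mural genes was 0.383 of that of the endothelial genes in animal 1 and 0.369 in animal 2. In the second quantification the ratio was 0.351 and 0.379, so its direction turned with the method. The fall in the first quantification depended on Tagln. With Tagln left out, the mural sum there rose from 48.6 to 63.5 TPM between the animals. The endothelial sum rose less in proportion, from 222 to 248 TPM.

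**Figure D4:**
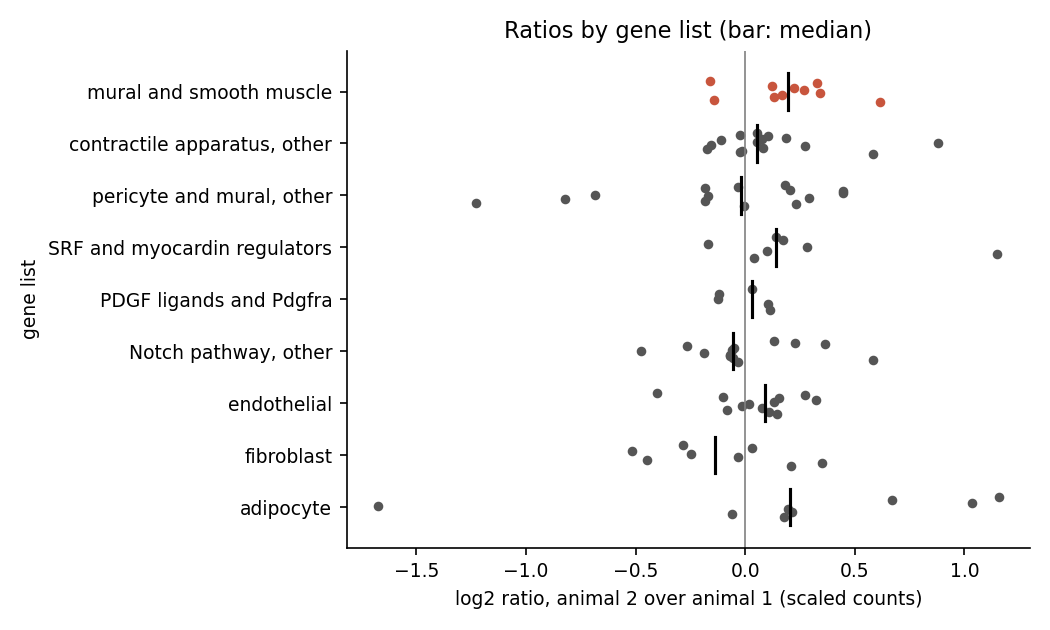
Log2 ratio of animal 2 over animal 1 by scaled counts for each gene with a mean of at least 10 counts, by gene list, with a bar at the median. The medians were 0.20 for the 10 mural and smooth muscle genes, 0.06 and -0.02 for the other contractile and pericyte lists, 0.09 for the endothelial list, -0.14 for the fibroblast list and 0.21 for the adipocyte list.

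Markers of other cell types differed between the libraries alongside these genes. Of 8 adipocyte genes, 6 were higher and 2 lower in animal 2, with no interval that included 1 and a summed level of 2052 and 2588 TPM. The most abundant of that list, Cfd and Fabp4, had 804 and 818 TPM and 679 and 838 TPM. Of 5 erythroid genes, 4 were higher, and the sum was 1133 and 1994 TPM, with Hba-a1 at 416 and 820 TPM and Hbb-bs at 377 and 531 TPM, values that are uncertain because both have near-identical copies. Of 8 fibroblast genes, 3 were higher and 5 lower, with a sum of 152 and 161 TPM. Dcn had 59.0 and 72.3 TPM, and Col3a1 27.1 and 25.2 TPM. The medulla list was lower in animal 2 for 5 of 6 genes and the cortex list higher for 4 of 6, with sums of 2093 and 1809 TPM and of 15782 and 18166 TPM. Of 7 kidney genes, 5 averaged 10 counts or more, and these 5 were lower in animal 2. Intervals lay wholly below 1 for 4 of these, while that of Aqp2, at 13 and 12 counts, included 1. The part of these tissues in the values of the 10 genes was not tested.

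Skeletal and cardiac muscle, which share Des and Acta2 paralogs, were near absent by their defining markers apart from Myl1. Only 2 of that list's 12 genes, Myl1 and Mb, reached a mean of 10 counts, and the sum was 6.50 TPM in animal 1 and 8.83 TPM in animal 2. Myl1, a light chain with 138 and 174 counts, made up most of it, at 5.25 and 7.08 TPM. Mb had 6 and 15 counts, and Mylpf, below that mean, had 12 and 7. Tnnt3 was listed at 0 TPM and 0 counts in both libraries, though its deposited TPM intervals were 0.700 to 1.68 and 0.753 to 1.79.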

How the data were processed

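Total RNA-seq of adrenal gland was analysed from 2 libraries of 1 group, each made from 300 ng of RNA per the labels. A deposited text names mm10 and GENCODE M21 for every table. It traces the gene table and the first transcript table to transcriptome alignments and the second transcript table to reads and an index. Per the file headers, the column names are those of RSEM and kallisto; the aligner, versions and settings are not given in the sources used here. Expected or estimated counts of read pairs, which need not be whole, were deposited per gene and per transcript by the authors. TPM, as deposited, is a relative transcript number with a fixed sum over the rows of a table. The percent of a gene's TPM in a transcript was deposited for the first transcript table. Bounds of a TPM interval of unstated level, effective lengths and posterior SDs of counts were other deposited values used. A deposited interval need not contain the TPM itself. That of Cnn1 in animal 1 was 0.176 to 0.772, with a TPM of 0.150.

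Expected counts were rounded for scaling and intervals. Library size was the total on annotated genes; spike-in rows and the rows with no gene name (5.79 and 1 counts) stayed out. Scaling used TMM of edgeR 4.0.16 (factors 1.02 and 0.978) on genes with a mean of at least 10 counts. A prior of 0.5 counts was added to each count before ratios were taken, and intervals were exact Clopper-Pearson 95% intervals of a gene's share of counts, turned into a ratio. TPM is not rescaled between libraries, and the median log2 TPM ratio of all genes tested was 0.11. Transcript ends, exons and names came from GENCODE M21 and promoters from RefSeq on GRCm38.p6. All printed sequences are reference sequences, not read from the hybrid animals. The promoters of Myh11 and Tagln were not used here, and that of Pdgfrb was not read. Alternatives covered the scaling (total counts, DESeq2 1.42.0 size factors, spike-ins), TPM, the prior, the filter, the quantification and each library left out. Steps were run with Python 3.11.15 and R 4.3.3 and tested on simulated data.

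Members and gene lists were chosen with earlier results of these data known. The text names all 10 genes, listed paralogs and the 2 genes of highest mean TPM of each other list. It names the transcripts at 10% or more of the gene's TPM in either library of the first quantification. Some models that reached 10% only in the second are not named. Other genes were named as examples after their values were seen: Ucp1, Lrp2, Aqp2, Myocd, Mb, Tnnt3, the overlapping genes and those of the closing section.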

Additional observations from a re-analysis of the deposited data

How the results depend on the processing

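No paired analysis was possible because the labels give 1 group, so no groups share replicate numbers. The TPM of the second quantification as the measure of the ratio was added after seeing the data, as were the sum over complete models and the median without Cnn1. Of 10 genes, 8 were higher in animal 2 by TMM, total counts or DESeq2 size factors, 7 by deposited TPM or the counts of the second quantification, and 10 with spike-in totals, where the median of all genes was 0.19 and 8 lay above it; Notch3 and Myh11 changed sign there, to 0.03 and 0.06. The median log2 ratio of 0.20 became 0.39 with spike-ins. By the TPM of the second quantification 4 were higher and 6 lower and the median was -0.041, with the median of all genes at -0.13 and 8 of the 10 above it. Tagln turned to -0.38 by deposited TPM. By the TPM of the second quantification Tagln turned to -0.073, Rgs5 to -0.0094, Mylk to -0.082 and Des to -0.20. Pdgfrb and Cspg4 kept their sign by that TPM, at 0.13 and 0.069, but fell below their counting intervals. Against the median of all genes for that measure, -0.13, Tagln, Rgs5 and Mylk lay above and Des below. The cause of these turns was not tested. Acta2 stayed between 0.49 and 0.81 in all settings run, under 1.5-fold with total counts (0.55), deposited TPM (0.56) and the TPM of the second quantification (0.49). The summed TPM of 88.3 was 137.6 in the second quantification, 262.4 when rescaled to nuclear protein-coding genes and 70.4 over complete protein-coding models, and leaving out each library gave 85.0 to 91.5. Depth limits Cnn1, at 10 and 11 counts, and the minor models of Myh11.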

Other observations

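Some genes outside the 10 stood further apart than most of their lists, and were chosen after their values were seen. Synpo2, an actin-associated protein of smooth muscle, had 815 counts in the first animal and 1508 in the second, and its log2 ratio of 0.88 had a 95% counting interval of 0.76 to 1.01. Myl9, the regulatory light chain that myosin light chain kinase phosphorylates, had 557 and 838 counts and a log2 ratio of 0.58 (0.43 to 0.74), close to the 0.62 of Acta2. Other genes of the pericyte list went the other way. Rgs4 had 1586 and 992 counts and a log2 ratio of -0.68 (-0.80 to -0.57). Vtn, vitronectin, had 234 and 133 counts and -0.82 (-1.14 to -0.51). Cox4i2, a cytochrome oxidase subunit, had 24 and 10 counts and -1.23 (-2.50 to -0.15). At least 1.5-fold differences in either direction were found in 14.3% of all genes tested. No test between the libraries could be made with 1 per labelled replicate.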
